A study of Mus musculus with 2 samples.

Results

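Cytochrome P450 genes were taken as the protein-coding genes whose GENCODE mouse symbol is Cyp, a family number and, for all but Cyp51, a letter and a member number. Of 43346 genes in the deposited tables, 95 met this rule, in 17 families on 15 chromosomes. The RNA came from whole lung of 1 adult female C57BL/6J mouse of 10 weeks, with no treatment or altered allele named in the labels. Polyadenylated RNA was sequenced in 2 libraries, labelled as technical replicates 1 and 2 of the same biological sample, the second made later. Both libraries form 1 group, so the study holds no comparison of conditions. Every SD is over these 2 libraries, and no p-value is given for a difference between them. Levels are given in TPM, the share of transcript molecules scaled to a fixed total, which corrects for transcript length.

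P450 enzymes hold a heme group whose iron is bound by a conserved cysteine, and they insert an oxygen atom into their substrates. Most sit in the endoplasmic reticulum and draw electrons from P450 reductase (Por), and a smaller set works in mitochondria with ferredoxin. In lung the best known are the enzymes of club cells, secretory cells of the small airways, which activate inhaled chemicals such as naphthalene. Others make or break down sterols, steroid hormones, vitamin D, retinoic acid and lipid mediators derived from arachidonic acid.

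The shared feature of the family is shown first, since it ties together genes whose levels differ widely. In the longest coding transcript of each gene, a pattern of 10 codons around the heme-binding cysteine was sought. The pattern was any 3 residues, glycine, any, arginine or histidine, any, cysteine, any, then glycine or alanine. It was found in 89 of 95 members. The other 6 were Cyp7a1, Cyp7b1, Cyp8b1, Cyp39a1, Cyp20a1 and Cyp3a59, named because they were the exceptions. The 30 bases are printed for 7 genes that recur in the results, from GENCODE transcripts, with the cysteine codon in capitals.
Cyp2f2: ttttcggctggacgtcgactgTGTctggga
Cyp2s1: tactccttaggtaagcgagtcTGCctggga
Cyp2j6: ttctcaatgggaaagcgagctTGCctggga
Cyp51: tttggagctgggcgtcatcgtTGTgttgga
Cyp4b1: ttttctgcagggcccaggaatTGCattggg
Cyp4f18: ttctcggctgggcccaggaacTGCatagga
Cyp1b1: ttctcagtgggcaaacggaggTGCatcggt

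The position of an exon boundary inside these 30 bases followed the family number. In all 49 members of family 2 a boundary fell after base 10, and Cyp51 had its boundary at the same base. In family 4 it fell after base 17 in 16 of 17 members, and Cyp4v3 had it after base 28. No boundary lay inside the pattern in the 3 members of family 1, in the 6 members of family 3 that hold it, or in the mitochondrial families 11, 24 and 27. On GRCm38 the bases above run, across an intron, over chr7:27132606-27133235 (plus strand) in Cyp2f2, and on the minus strand over chr7:25803740-25803925 in Cyp2s1, chr4:96518186-96523712 in Cyp2j6 and chr5:4083284-4086469 in Cyp51. Those of Cyp4b1 span chr4:115625216-115625662 and those of Cyp4f18 chr8:71988725-71989076, both on the minus strand. The Cyp1b1 bases lie in 1 exon at chr17:79710309-79710338 (minus strand). The cysteine codon was TGC in 54 members and TGT in 35.

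Of the 95 members, 25 averaged 1 TPM or more over both libraries and are called detected (26.3%), against 60.6% of all 21474 protein-coding genes. Replicate 1 alone gave 23 detected members and replicate 2 gave 27. The 23 were detected in both, and the 4 that reached 1 TPM only in replicate 2 were Cyp4f18, Cyp4f15, Cyp4f17 and Cyp4f39, all of subfamily Cyp4f. A further 37 members had no count in either library. A count of 3, the limit that a count of 0 allows, equals 0.186 CPM (counts scaled to library size) in replicate 1 and 0.175 in replicate 2. Summed over members, the level was 1489 TPM in replicate 1 against 2561 TPM in replicate 2, a mean of 2025 ± 758 (SD, n = 2). That was 0.149% and 0.256% of all TPM. Cyp2f2 and Cyp4b1 together held 64.6% of the sum in replicate 1 and 81.0% in replicate 2. Without Cyp2f2 the sums were 1015 and 981 TPM.

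The libraries held 16104442 and 17110882 expected counts, which are estimated reads per gene. They differ strongly along GC content, the share of G and C bases in a gene's transcripts. The log2 ratio of counts, replicate 2 over replicate 1, correlated with GC content at a Pearson r of 0.765 across 14067 genes, which share the same libraries and are not independent. The summed level of club cell markers was 24345 TPM in replicate 1 against 186791 TPM in replicate 2, and all 7 were above 1 TPM on average. Scgb1a1 alone made up 17498 and 174257 TPM of these sums. Scgb3a2 was at 4671 and 4406 TPM. Of the 7 markers 4 were over 2-fold higher and 1 lower in replicate 2. Among all genes averaging 1 TPM or more, 39.3% were higher and 28.2% lower. Sums for other lung cells also differed between libraries. Alveolar type 2 markers summed to 3576 TPM in replicate 1 against 47462 TPM in replicate 2. Ciliated markers summed to 112 and 845 TPM, and smooth muscle markers to 88.5 and 738 TPM. Alveolar type 1 and fibroblast sums were also higher in replicate 2. Endothelial markers, at 1761 and 1286 TPM, and macrophage markers, at 1915 and 1549 TPM, went the other way. In contrast, 9 hepatocyte markers summed to 4.29 and 7.48 TPM with Ttr at 0 in both libraries. Adrenal cortex markers summed to 1.51 and 0.59 TPM, with Hsd3b1 and Nr5a1 at 0. Adipocyte markers summed to 561 and 581 TPM, of which Fabp4 alone made up 460 and 478 TPM. Plin1 was at 0 and 11.9 TPM. In whole tissue, fewer cells of a type and less RNA per cell cannot be told apart.

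**Figure D1:**
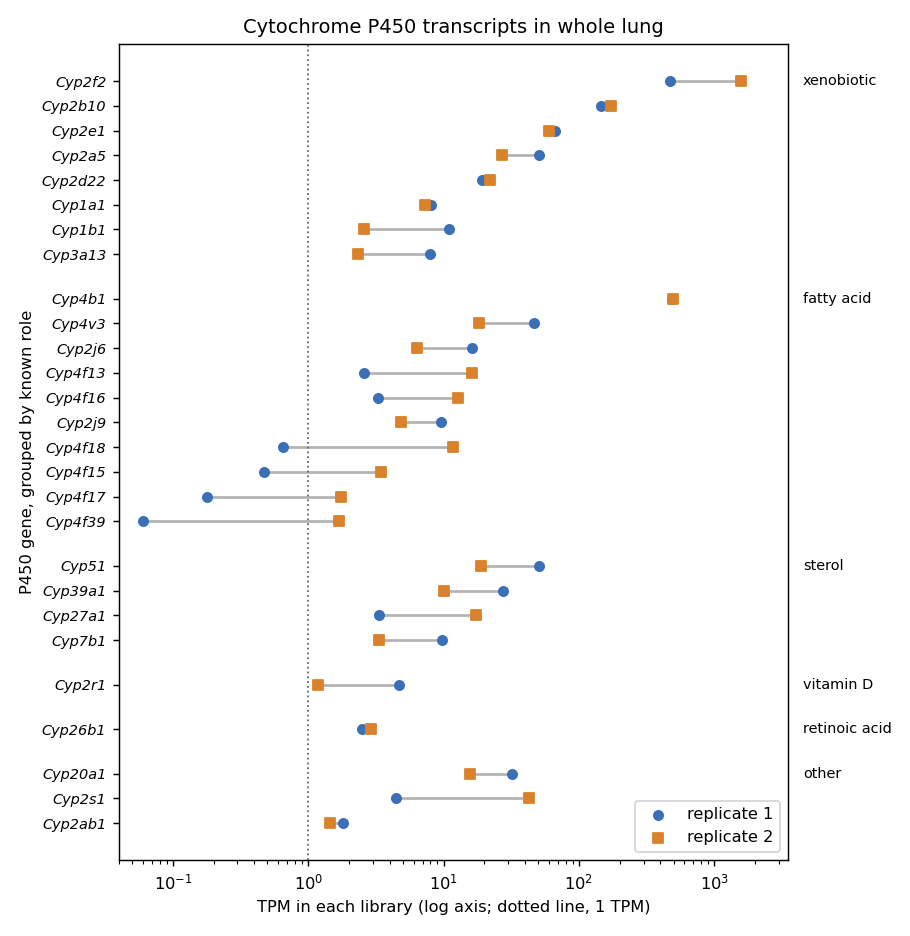
TPM (log axis) of the 25 detected P450 genes and of Cyp4f17 and Cyp4f39, grouped by known role, with a circle for replicate 1 and a square for replicate 2. Cyp2f2 and Cyp4b1 lie highest. All 6 plotted Cyp4f genes lie higher in replicate 2. Of these, Cyp4f15, Cyp4f18, Cyp4f17 and Cyp4f39 reach 1 TPM only there, so their direction is partly fixed by the choice of genes.

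Among the 46 members known for foreign chemicals (families 1 and 3 and most of family 2), 8 were detected, and this group held 783 TPM in replicate 1 against 1875 TPM in replicate 2. Cyp2f2, the naphthalene-activating enzyme of club cells, was at 473 TPM in replicate 1 against 1580 TPM in replicate 2. It had rank 2 among members in replicate 1 and rank 1 in replicate 2. Cyp2b10, which phenobarbital induces in liver, was at 145 and 173 TPM and had rank 3 in both. Cyp2e1, an oxidase of ethanol and small solvents, was at 66.7 and 60.0 TPM and had rank 4 in both. The order below Cyp2f2 and Cyp4b1 was thus the same in both libraries for these 2 genes.

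Cyp2a5, a coumarin hydroxylase, was at 50.3 TPM in replicate 1 against 27.1 TPM in replicate 2. Cyp2d22, 1 of 8 Cyp2d genes, was at 19.3 and 21.9 TPM and was the one Cyp2d gene detected. Cyp1a1, a target of the aryl hydrocarbon receptor Ahr, was at 8.14 and 7.26 TPM. Cyp1b1, which also responds to that receptor, was at 10.99 TPM in replicate 1 against 2.59 TPM in replicate 2. Cyp1a2, the liver member of the pair of Cyp1a genes, had no count in either library. Cyp3a13 was at 7.93 and 2.35 TPM, and it was the one member of family 3 detected out of 7.

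Of 26 members known for fatty acids and their derivatives (family 4, Cyp2j and Cyp2u1), 8 were detected. Cyp4b1, a hydroxylase long known as the lung member of family 4, was at 489 TPM in replicate 1 against 494 TPM in replicate 2. Cyp4v3, a fatty acid hydroxylase, was at 46.4 and 18.3 TPM. The Cyp2j genes Cyp2j6 and Cyp2j9 were at 16.3 and 9.62 TPM in replicate 1, and at 6.35 and 4.88 TPM in replicate 2. All 3 were lower in replicate 2, unlike the Cyp4f genes. Cyp4f members hydroxylate leukotrienes and related lipids. Cyp4f13 was at 2.59 and 16.2 TPM, and Cyp4f16 at 3.28 and 12.7 TPM. Cyp4f18, known from myeloid cells, was at 0.65 and 11.7 TPM, and Cyp4f15 was at 0.47 and 3.45 TPM. The 5 Cyp4a genes, whose liver and kidney members respond to the receptor Ppara, summed to 0.22 and 0.03 TPM.

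Of 7 sterol genes, 4 were detected. Cyp51, the lanosterol demethylase of cholesterol synthesis, was at 51.0 TPM in replicate 1 against 18.7 TPM in replicate 2. The oxysterol hydroxylases Cyp39a1 and Cyp7b1 were at 27.5 and 9.68 TPM in replicate 1, and at 10.1 and 3.36 TPM in replicate 2. Cyp27a1, a mitochondrial sterol hydroxylase, was at 3.34 and 17.3 TPM and was the only one of the 4 that was higher in replicate 2. The liver bile acid enzymes were not detected: Cyp7a1 had no count, and Cyp8b1 was at 0 and 0.25 TPM. Cyp46a1, the brain cholesterol hydroxylase, was at 0.05 and 0.23 TPM.

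Small groups completed the detected set. Cyp2r1, which starts the activation of vitamin D, was at 4.70 and 1.19 TPM. The other vitamin D genes, Cyp27b1 and Cyp24a1, summed to 0 and 0.03 TPM. Cyp26b1, which degrades retinoic acid, was at 2.51 and 2.92 TPM, and Cyp26a1 and Cyp26c1 were below 0.1 TPM. Cyp2s1, a member found outside the liver, was at 4.43 TPM in replicate 1 against 42.4 TPM in replicate 2. Cyp20a1, whose substrate is not known, was at 31.9 and 15.8 TPM, and Cyp2ab1 was at 1.80 and 1.45 TPM. None of the 6 genes of steroid hormone synthesis was detected, and together they summed to 0.11 TPM in replicate 1 against 0.18 TPM in replicate 2.

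Around the threshold, the 3 members just above a mean of 1 TPM were Cyp26b1 (2.72), Cyp4f15 (1.96) and Cyp2ab1 (1.63). The 3 just below were Cyp4f17, at 0.18 and 1.76 TPM, Cyp4f39, at 0.06 and 1.70 TPM, and Cyp2c23, at 0.10 and 0.32 TPM. Cyp4f17 had 3 counts in replicate 1 and 42 in replicate 2, and Cyp4f39 had 1 and 38. Below these 3 no member had a mean above 0.145 TPM, the level of Cyp2c55.

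Many P450 genes lie in clusters of tandem copies, and detection was uneven among them. With neighbours joined when less than 1000000 bases apart, 8 clusters of at least 3 members held 67 genes, of which 12 were detected (17.9%). Of the 28 genes outside such clusters, 13 were detected (46.4%). This split has no test, since the members of a cluster share ancestry and sequence. The cluster at chr7:25802475-27158668 (GRCm38) held 13 members, from Cyp2s1 to Cyp2t4, with Cyp2s1, Cyp2b10, Cyp2a5 and Cyp2f2 detected. It gave 673 TPM in replicate 1 against 1823 TPM in replicate 2. The 14 Cyp2c genes at chr19:39007019-40187333 summed to 0.82 and 0.30 TPM with none detected. The 6 Cyp3a genes at chr5:145345279-146113287 summed to 0.39 and 0.11 TPM, and Cyp3a13 lies apart from them. Cyp4b1 ends a run of Cyp4a genes at chr4:115106323-115647723, where the other 6 members were not detected.

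**Figure D2:**
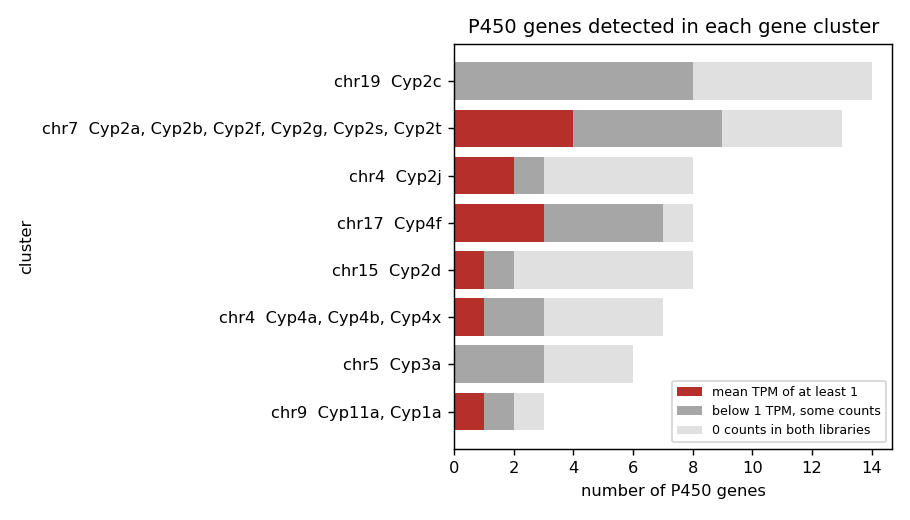
Number of P450 genes in each of the 8 clusters with at least 3 members, split into genes averaging 1 TPM or more, genes below 1 TPM with some counts, and genes with 0 counts in both libraries. None of the 14 Cyp2c and 6 Cyp3a genes in clusters was detected, against 4 of 13 in the chromosome 7 cluster.

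The libraries were compared by the log2 ratio of counts, replicate 2 over replicate 1, after scaling by the TMM method, and a gene was called when the ratio passed 2-fold. Of the 25 detected members, 7 were over 2-fold higher in replicate 2, against 39.3% of the 14139 genes tested, and 9 were over 2-fold lower, against 28.2%. The other 9 lay within 2-fold. The median log2 ratio was -0.01 for members and 0.19 for all genes. The 7 higher members were Cyp2f2, Cyp2s1, Cyp27a1 and 4 Cyp4f genes. The 9 lower members were Cyp51, Cyp4v3, Cyp39a1, Cyp2j6, Cyp1b1, Cyp7b1, Cyp3a13, Cyp2r1 and Cyp2ab1. With 1 library on each side the ratios have no replicate check, and their intervals cover counting error only.

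Cyp2f2 rested on 8926 counts in replicate 1 and 41938 in replicate 2, a 3.69-fold higher scaled count in replicate 2 (95% exact binomial interval 3.60 to 3.77). The club cell marker Scgb1a1 was 10.9-fold higher in replicate 2 on the same scale, and another, Aldh1a1, was 2.21-fold higher in replicate 1. Markers of other cells differed too: of the alveolar type 2 markers, Sftpc was 151-fold higher in replicate 2 and Lamp3 3.26-fold higher in replicate 1. Whether any of these values has a part in the Cyp2f2 ratio was not tested. Cyp2s1 had 127 and 1715 counts and was 10.6-fold higher in replicate 2 (8.84 to 12.8). Cyp27a1 had 64 and 383 counts and was 4.67-fold higher (3.60 to 6.22). Cyp4f18 had 8 and 276 counts, the widest ratio among detected members, at 25.5-fold (13.5 to 63.3). In the other direction, Cyp1b1 had 608 and 202 counts and was 3.83-fold lower in replicate 2 (3.27 to 4.52). Cyp51 had 2095 and 1108 counts and was 2.41-fold lower (2.24 to 2.59). The Cyp2ab1 ratio of 2.43-fold lower rested on 50 and 26 counts, and its interval of 1.50 to 4.10 included 2-fold.

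The ratios were ordered along GC content. Among the 25 members the Pearson correlation of ratio and GC content was 0.74 and Spearman's rho 0.75, given as a description, since all points come from the same 2 libraries. In the lowest of 3 GC classes of equal size, up to 47.6% GC, 7 of 9 members were over 2-fold lower in replicate 2 and none was higher. Of all genes in that class 66.7% were lower. In the middle class 3 of 10 members were higher and 2 lower, against 33.3% and 15.6% of all genes there. In the highest class, above 53.3% GC, 4 of 6 members were higher and none lower, and of all genes there 83.1% were higher. Cyp4f18 had 56.1% GC and Cyp2s1 55.1%, while Cyp2r1 had 42.2% and Cyp3a13 42.4%.

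**Figure D3:**
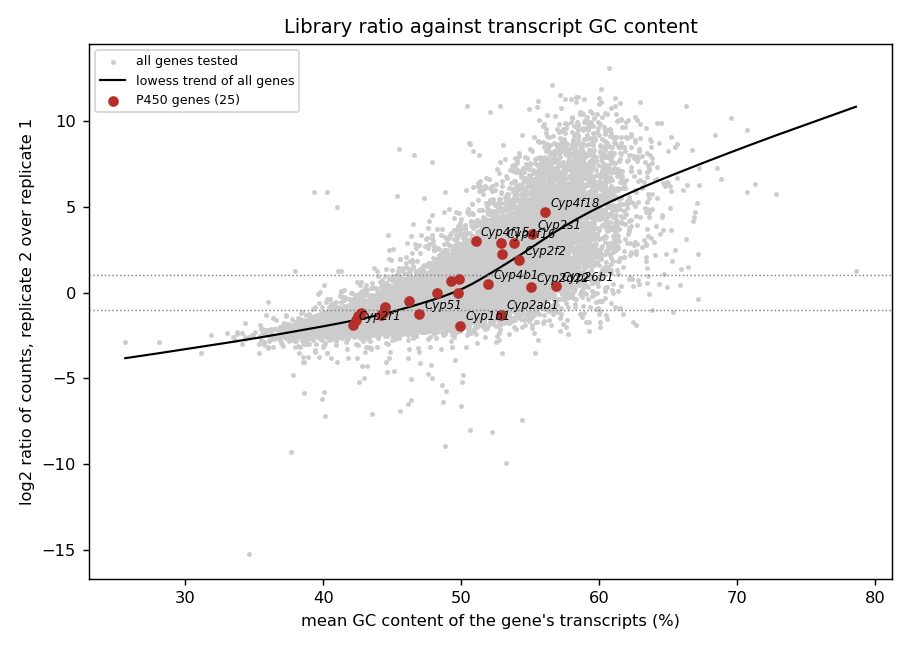
Log2 ratio of counts, replicate 2 over replicate 1, against mean transcript GC content (%), for all genes tested (grey) with their lowess trend (line) and the 25 detected P450 genes (red). Dotted lines mark 2-fold, and names are given for members over 2-fold from the trend and for 5 others. Members follow the slope of all genes, with Cyp26b1, Cyp2ab1, Cyp2d22 and Cyp1b1 lowest against it and Cyp4f15 highest.

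With the trend of all genes on GC content subtracted, 3 members stood over 2-fold above it, against 22.6% of genes, and 4 stood over 2-fold below it, against 20.5%. The other 18 lay within 2-fold of the trend. The 3 above were Cyp4f15, Cyp4f18 and Cyp4f16, at log2 distances of 2.37, 1.51 and 1.35. The 4 below were Cyp26b1, Cyp2ab1, Cyp2d22 and Cyp1b1, at -3.22, -2.77, -2.28 and -2.10. Cyp2f2 lay at -0.27 and Cyp2s1 at 0.76, so neither stood over 2-fold from genes of like GC content. At the third base of codons the relation was looser. GC content there ran from 37.3% in Cyp2r1 to 77.9% in Cyp26b1, and its correlation with the ratio over the 25 members was 0.61 (Pearson) and 0.57 (Spearman). Cyp1b1 had 71.5% GC at that base and the lowest ratio of the 25.

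Subfamily Cyp4f held 4 of the 7 members called higher. Of all genes tested 39.3% were called higher, and 33.3% and 83.1% in the middle and highest GC classes that hold these 4. Cyp4f15 and Cyp4f18 averaged 1 TPM only through replicate 2, where they are high, so their direction is partly fixed by the threshold. Cyp4f13 lay within 2-fold of the GC trend, at 0.91. Cyp4f17 and Cyp4f39, with means below 1 TPM, were at 9.53-fold (3.51 to 55.4) and 20.1-fold (5.04 to 1208) on few counts. Cyp4f13 rested on 31 and 298 counts and Cyp4f16 on 39 and 365. Cyp4f15 had 10 and 105 counts, and its ratio was 7.88-fold (4.31 to 17.7). Cyp4f14, Cyp4f37 and Cyp4f40 had at most 3.03 expected counts in either library. Summed over 9 genes, Cyp4f gave 7.23 TPM in replicate 1 against 47.7 TPM in replicate 2. Of these, 8 lie at chr17:32452723-32947402 and Cyp4f18 lies on chromosome 8.

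Upstream sequence is shown for these related copies to compare detected with undetected members. RefSeq promoter entries (GRCm38.p6) were matched by symbol for 74 of 95 members, 22 of them detected, and for 8 of 9 Cyp4f genes, Cyp4f17 being without one. In the 250 bases before the start, the letters GATTGG, whose reverse strand holds the CCAAT box, were found on either strand in 6 of these 8 genes. They were present upstream of 19.1% of 16312 protein-coding genes. Windows of 60 bases with GATTGG in capitals are printed for the 4 detected members and for Cyp4f14 and Cyp4f37, which were not detected.
Cyp4f13: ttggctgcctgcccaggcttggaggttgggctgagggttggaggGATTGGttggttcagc
Cyp4f15: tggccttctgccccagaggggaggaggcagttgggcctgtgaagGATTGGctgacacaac
Cyp4f16: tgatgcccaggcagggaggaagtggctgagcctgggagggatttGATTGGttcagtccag
Cyp4f18: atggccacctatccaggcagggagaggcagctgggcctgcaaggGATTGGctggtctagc
Cyp4f14: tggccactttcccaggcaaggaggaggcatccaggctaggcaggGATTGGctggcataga
Cyp4f37: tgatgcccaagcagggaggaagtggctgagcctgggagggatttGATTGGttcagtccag

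The windows lie at chr17:32947423-32947482 (minus strand) for Cyp4f13, chr17:32685536-32685595 (plus) for Cyp4f15 and chr17:32536489-32536548 (plus) for Cyp4f16. Those of Cyp4f18, Cyp4f14 and Cyp4f37 lie at chr8:72009660-72009719 (minus), chr17:32917392-32917451 (minus) and chr17:32621184-32621243 (plus). The first base of the match was at position -77 in Cyp4f13, -79 in Cyp4f15, -24 in Cyp4f16 and -49 in Cyp4f18, counted from the annotated start. Besides the detected members, the undetected Cyp4f14 and Cyp4f37 held the match, while Cyp4f39 and Cyp4f40, also undetected, lacked it on either strand. It describes these letters only.

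Across the family, upstream sequence was poor in CG pairs. The median number of CG pairs in 250 bases was 3 for the 22 detected members, against 15 for 10243 other detected protein-coding genes. For the 52 members not detected it was 2, against 3 for 5995 other undetected genes. The ratio of observed to expected CG pairs was above 0.6 in 5 of 22 detected members (22.7%) and in 2 of 52 undetected ones (3.85%), compared with 63.6% of other detected and 16.5% of other undetected genes. The 5 were Cyp51, Cyp4v3, Cyp2r1, Cyp20a1 and Cyp2s1, with 20, 17, 16, 15 and 15 pairs. Cyp1b1 had 12 pairs and fell just under that ratio at 0.588. The letters TATAAA, on either strand, were upstream of 4 of 22 detected members (18.2%) and 23 of 52 undetected ones (44.2%). They were upstream of 8.44% of other detected and 20.7% of other undetected genes, and of 13.1% of all protein-coding genes.

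**Figure D4:**
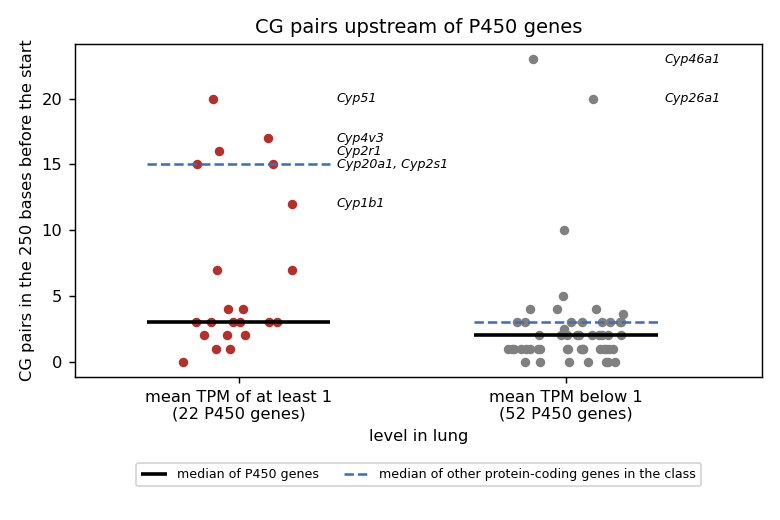
Number of CG pairs in the 250 bases before the annotated start for 22 detected and 52 undetected P450 genes (points, the mean over starts where a gene has several), with medians of P450 genes (solid) and of other protein-coding genes of the same class (dashed). The detected P450 genes have a median of 3 pairs, against 15 in other detected genes.

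The contrast is visible in the bases upstream of Cyp2f2 and Cyp4b1, the most abundant members, and of Cyp51. They are shown up to the first annotated exon base, with CG in capitals: 204 bases at chr7:27119705-27119908 (plus strand), 248 bases at chr4:115647724-115647971 (minus) and 201 bases at chr5:4104747-4104947 (minus). They hold 0, 3 and 16 CG pairs.
Cyp2f2: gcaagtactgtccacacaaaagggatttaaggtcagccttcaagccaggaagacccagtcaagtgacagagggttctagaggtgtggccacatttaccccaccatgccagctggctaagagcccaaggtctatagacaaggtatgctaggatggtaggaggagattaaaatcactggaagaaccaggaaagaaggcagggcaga
Cyp4b1: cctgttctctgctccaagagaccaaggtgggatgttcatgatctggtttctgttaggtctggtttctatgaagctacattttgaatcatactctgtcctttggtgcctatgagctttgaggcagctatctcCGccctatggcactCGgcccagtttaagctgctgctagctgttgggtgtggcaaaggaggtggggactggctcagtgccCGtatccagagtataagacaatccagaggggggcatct
Cyp51: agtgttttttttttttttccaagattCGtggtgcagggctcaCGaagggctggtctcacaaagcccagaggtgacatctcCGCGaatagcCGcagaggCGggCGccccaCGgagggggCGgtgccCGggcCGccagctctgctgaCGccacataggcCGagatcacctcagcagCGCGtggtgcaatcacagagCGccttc

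The transcript that the authors' quantification assigned to a gene also differed between libraries. Of the 17 detected members with 2 or more annotated transcripts, the transcript with the largest share of the gene's TPM differed in 6, against 34.1% of 9700 genes. Of the 6, Cyp4b1, Cyp2a5 and Cyp20a1, had at least 50 counts in each library, and Cyp4f13, Cyp4f16 and Cyp2ab1 did not. The main transcript was a coding one in 21 of the 25 detected members in replicate 1 and in 24 in replicate 2.

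For Cyp4b1, 95.9% of the gene's TPM in replicate 1 went to Cyp4b1-202, annotated as a target of nonsense-mediated decay. In replicate 2, 95.8% went to Cyp4b1-201, the coding transcript, and 1.76% to Cyp4b1-202. Cyp4b1-202 has 1497 bases and Cyp4b1-201 has 1892. The gene's effective length was 1333 bases in replicate 1 and 1671 in replicate 2. The near equal TPM of 489 and 494 thus stood beside 7276 and 13036 counts, a scaled ratio of 1.41-fold (1.37 to 1.45). On either scale the gene lay within 2-fold.

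The 2 transcripts share 1382 bases with 50% GC. Cyp4b1-201 alone holds 510 bases with 55.3% GC, in exons 1 to 3 and parts of exons 4 and 8 of its 12, and Cyp4b1-202 alone holds 115 bases with 43.5% GC, its exon 6 of 10. The coding part of exon 1 of Cyp4b1-201, at chr4:115647508-115647687 (minus strand, 59.4% GC), and the coding part of that exon of Cyp4b1-202, at chr4:115628425-115628450 (42.3% GC), are printed because only 1 of the 2 transcripts holds each. Capitals mark the start codon of the first and the last 3 coding bases of the second.
Cyp4b1-201: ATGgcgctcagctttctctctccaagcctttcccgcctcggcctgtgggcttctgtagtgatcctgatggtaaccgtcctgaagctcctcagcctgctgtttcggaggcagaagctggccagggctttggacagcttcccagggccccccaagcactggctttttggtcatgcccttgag
Cyp4b1-202: tgtcacatcaagttgtcaacagaAGC

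Cyp2a5 and Cyp20a1 showed the same kind of difference. Of the Cyp2a5 TPM in replicate 1, 73.2% went to a coding fragment of 442 bases, and in replicate 2, 98.3% went to Cyp2a5-201, of 2013 bases. The gene's TPM was lower in replicate 2, while its counts of 375 and 773 gave a ratio 1.62-fold higher in replicate 2 (1.43 to 1.84). The direction for Cyp2a5 therefore depended on the scale. In Cyp20a1 the shares of replicate 1 were 35.5%, 31.9% and 32.6% for the transcripts 203, 201 and 202, and in replicate 2 the coding Cyp20a1-201 held 100%.

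**Figure D5:**
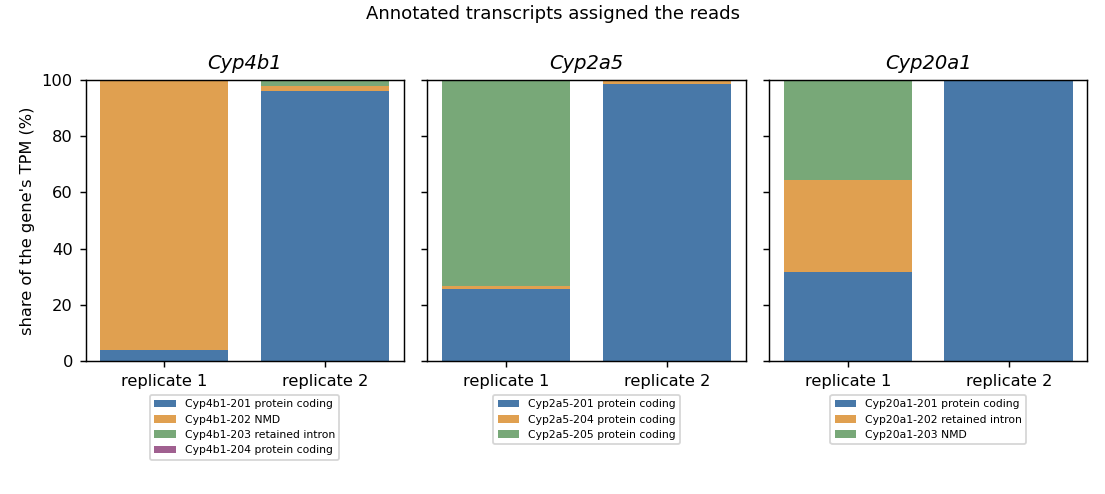
Share (%) of the gene's TPM given to each annotated transcript of Cyp4b1, Cyp2a5 and Cyp20a1 in each library, with the annotated type of each transcript (NMD, nonsense-mediated decay). In replicate 2 the coding transcript 201 holds 95.8%, 98.3% and 100%, and in replicate 1 it holds 3.96%, 25.6% and 31.9%.

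Reads shared between near-identical copies touched few detected members. Counts within 0.005 of a whole number in both libraries were found in all but 3 of the 25, namely Cyp2a5, Cyp4b1 and Cyp4f16. The deposited posterior SD of the count was above 0 in 4 members and reached at most 2.4 counts. Cyp4a12b, a coding gene outside the symbol rule, was at 1.37 and 0.86 TPM and was the only 1 of 21 other Cyp-named loci with a mean of at least 1 TPM. These include pseudogenes, and the pseudogene Cyp4b1-ps2 was at 0.57 and 0.84 TPM.

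Partners of the P450 enzymes were measured from lists of other genes. Of 9 electron donors matched, all were tested, with 4 over 2-fold higher and 1 lower in replicate 2. Of all genes tested 39.3% were higher and 28.2% lower. The 4 higher donors, Por, Cyb5r3, Fdx1l and Fdxr, lie in the highest GC class, where 83.1% of all genes were higher. Their log2 distances from the GC trend were 1.67, -0.62, 3.83 and 1.50. The lower one, Pgrmc1, lies in the lowest class, where 66.7% were lower. Por, the reductase for microsomal P450 enzymes, was at 16.2 TPM in replicate 1 against 129 TPM in replicate 2. Cyb5a, the cytochrome b5 that also passes electrons, was at 936 and 765 TPM. The heme-binding partner Pgrmc1 was at 897 and 215 TPM. Por thus lay below Cyp2f2 and Cyp4b1 in both libraries, on the TPM scale. Fdx1, the mitochondrial ferredoxin, was at 45.0 and 68.4 TPM.

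Of 13 genes of heme synthesis and breakdown, 9 were over 2-fold higher and 1 was lower in replicate 2. In the highest GC class, which holds Alas1, Alad, Urod, Ppox, Hmox1, Hmox2 and Blvrb, 83.1% of all genes were higher. Against the GC trend, Alas2, Alad and Urod stood over 2-fold above it, and Cpox and Hmox2 over 2-fold below it. The other heme genes lay within 2-fold of the trend. Alas1, the first enzyme of heme synthesis outside red cells, was at 42.0 and 158 TPM. Of 14 regulators, 8 were tested, with 3 higher and 3 lower. Ahr, the receptor that controls Cyp1 genes, was at 53.5 and 12.1 TPM. Nr1i2, Nr1i3 and Hnf4a, the main regulators of liver P450 genes, were at or below 0.51 TPM in both libraries. These counts read against the same background of 39.3% higher and 28.2% lower.

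Levels of related enzymes outside the symbol rule varied widely. The flavin monooxygenases Fmo1 and Fmo2 were at 676 and 722 TPM in replicate 1, and at 226 and 247 TPM in replicate 2. Of the 5 Fmo genes none was over 2-fold higher in replicate 2 and 3 were lower. Of all genes tested 28.2% were lower, and in the lowest GC class 66.7%. Ephx1, the epoxide hydrolase that takes up P450 products, was at 37.2 and 132 TPM. The prostacyclin synthase Ptgis and the thromboxane synthase Tbxas1, P450 enzymes with other symbols, were at 3.39 and 1.88 TPM in replicate 1, and at 58.3 and 7.19 TPM in replicate 2. Both were over 2-fold higher in replicate 2, as were 39.3% of all genes tested. In the highest GC class, which holds Ptgis, 83.1% were higher, and in the middle class, which holds Tbxas1, 33.3%. Ptgis lay at a log2 distance of 0.47 from the GC trend and Tbxas1 at 1.86.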

How the data were processed

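The authors deposited expected counts per gene and transcript (estimated reads), TPM values, posterior mean TPM, the percent of its gene's TPM that each transcript holds, and effective lengths, per the file headers, on mm10 with GENCODE annotation M4 per the deposited file descriptions. Aligner and quantifier: not given in the sources used here. Positions, types and transcript sequences came from GENCODE M21 (GRCm38, the same assembly), and 42462 of 43346 genes matched. Of 61 transcripts of detected P450 genes above 0, 53 had the same length in the reference. Counts were rounded and scaled by TMM (edgeR 4.0.16, R 4.3.3, factors 0.913 and 1.10), and ratios had a prior of 0.5 counts. Intervals are exact Clopper-Pearson. The GC trend was fitted by lowess (span 0.3, statsmodels 0.14.6). Ratios and intervals were tested on simulated counts that held counting error only and no GC effect. That test cannot speak to the differences between these libraries. Named genes were the 15 highest, the 2 highest of each detected family, the 5 highest and 5 lowest ratios with at least 100 counts, the 3 on either side of 1 TPM, and genes whose main transcript differed. Cyp2j9 and Cyp2r1 complete the detected set outside this rule. Members and lists were chosen with earlier results of these data known. Whether the libraries share 1 extraction is not stated, so SDs measure technical spread. Fdx2 was matched as Fdx1l. Alternatives included DESeq2 1.42.0 size factors.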

Additional observations from a re-analysis of the deposited data

How the results depend on the processing

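The number of detected members was 34 at a mean TPM of at least 0.1, 13 at a mean of at least 10, and 27 by the posterior mean TPM. These were 35.8%, 13.7% and 28.4% of members, against 71.2%, 34.6% and 63.5% of protein-coding genes. Leaving out 1 replicate gave between 23 and 27 detected members and a summed level between 1489 and 2561 TPM. Scaling by DESeq2 size factors, setting genes at 0 to 3 counts, and ratios of TPM + 0.1 each gave 7 members over 2-fold higher and 9 lower, with Cyp20a1 in place of Cyp2ab1 under TPM (-1.01 and -0.29). In those settings between 37.1% and 38.8% of all genes were higher and between 28.3% and 31.6% lower. Total counts gave 8 and 7, against 42.4% and 22.4% of all genes, and intervals wholly past 2-fold gave 7 and 8. Subtracting the GC trend left 3 and 4, and the trend on the GC content of the main transcript, chosen after seeing the data, left 3 and 3, against 18.4% and 16.3% of all genes. A mean TPM of at least 10 left 3 and 4 of 13 members, against 34.0% and 34.2% of all genes. Without a filter, 23 and 24 of 58 members passed, against 41.5% and 28.3% of all genes, and 31 of the 33 members so added had at most 12 counts over both libraries. The median log2 ratio of members was 0.25 with total counts, -0.16 with TPM, 0.19 after the GC trend, 0.17 without a filter and 0.32 at a mean of at least 10. The median of all genes was 0.19, 0.45 with total counts and 0.01 with TPM. It was -0.02 after the GC trend and -0.24 at a mean of at least 10, and members lay above it in these settings. After the trend on the main transcript's GC content the medians were -0.075 for members and -0.026 for all genes, so members lay below. Among named members called over 2-fold, the log2 ratio turned sign after the GC trend in Cyp2f2 (-0.27), Cyp4v3 (0.048), Cyp2j6 (0.32) and Cyp7b1 (0.19). With the main transcript's GC content it did so in Cyp2s1 (-0.32), Cyp4f13 (-0.39), Cyp2j6 (0.21) and Cyp7b1 (0.083), and Cyp2f2 was at 0.09. Members within 2-fold also changed sign under both trends, among them Cyp2d22 (-2.28 and -1.17), Cyp26b1 (-3.22 and -3.82) and Cyp4b1 (-0.53 and -0.43). By that measure Cyp2s1 and Cyp4f13 thus lay below the trend, and Cyp2ab1, at -0.96, no longer stood 2-fold from it. The cause was not tested. Leaving out a replicate gives no ratio. No paired analysis was possible because the 2 libraries form 1 group. Depth limits what can be said of the 70 members below 1 TPM, 37 of which were at 0.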
